A study of Mus musculus with 3 samples.

Results

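Aminoacyl-tRNA synthetases are the enzymes that join each amino acid to its transfer RNA, and 36 of their genes were followed here in mouse aortic endothelial cells exposed to an oxidant. The members were the protein-coding rows of the deposited tables whose gene symbol names a synthetase. All 36 were found, among 18287 rows in all. The 20 cytosolic enzymes are described apart from the 16 mitochondrial ones, whose symbols end in 2.

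The cells were a purchased culture of endothelial cells, which line blood vessels, from mouse aorta, and polyadenylated RNA was sequenced as stranded libraries. Each of the 3 groups is a single library. Cells of the control library are labelled control, but the treatment protocol text lists glucose oxidase and Et2HOBA alike for all 3 samples, and whether control cells received a vehicle is not stated. The groups here follow the treatment label of each sample. The glucose oxidase library came from cells exposed for 30 min to 5 mU/mL of that enzyme, a source of hydrogen peroxide. The Et2HOBA library came from cells given the same glucose oxidase exposure and ethyl-2-hydroxybenzylamine (Et2HOBA) at 0.2 mM for 24 h. The design text names Et2HOBA as the agent used to scavenge the adducts formed, and the series title names isolevuglandins, reactive lipid products of oxidative stress. Neither the order of the exposures nor the mouse strain, sex, age or number of cultures is given in the labels. By these labels none of the 3 libraries was given only Et2HOBA, so Et2HOBA without glucose oxidase cannot be described. Over the 18258 genes matched between the tables, the control library held 35850544 reads, the glucose oxidase library 34869768 and the Et2HOBA library 40046418. Where 3 read numbers are given in a row below, they follow that order. For the glucose oxidase library these reads were worked out from log2 differences in the authors' deposited table.

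Synthetases work in separate sets in the cytosol and in mitochondria, and both sets are encoded in the nucleus. Gars and Kars, which attach glycine and lysine, supply both compartments from 1 gene each. When an amino acid runs short, uncharged transfer RNA activates the kinase GCN2, which phosphorylates the initiation factor eIF2. The transcription factor ATF4 is then made, and many cytosolic synthetase genes are among its known targets. That pathway is background to the values below and was not measured as such.

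With 1 library per group, no test between conditions was possible and no difference has a replicate check. Levels are given as reads, or as normalized counts, which are reads divided by a size factor per library. A log2 ratio is the log2 of the normalized count plus 10 in one library minus the same in another, and a ratio of at least 1 in either direction was taken as the limit for counting a gene. Folds were taken from normalized counts without that addition, and each has an exact 95% Clopper-Pearson interval for the pair of libraries compared. Such an interval reflects the counting of reads alone, with each read taken as independent and the size factors as fixed. It depends on the scaling chosen and cannot say that treatments differ.

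Endothelial identity was checked first. All 10 endothelial markers were listed, with 329513, 208832 and 216191 reads in sum. With Et2HOBA, Cdh5 (1.14-fold) and Emcn (1.47-fold) were above control and the other 8 below it, among them Kdr at 0.391, Tek at 0.247, Vwf at 0.267 and Tie1 at 0.542 of control. Kdr, Tek and Vwf were also below 0.5 of control after glucose oxidase alone. Of the smooth muscle markers 5 of 6 were listed, with 5014, 3588 and 4095 reads in sum. Nearly all of these were from Smtn, at 4970, 3517 and 3996 reads, while Myh11, which defines that type, had 19, 35 and 73. The fibroblast list had 2 of 5 genes, with 135, 1355 and 2844 reads in sum. Nearly all of these were from the growth factor receptor gene Pdgfra, at 107, 1325 and 2821 reads, while the collagen gene Col1a1 had 28, 30 and 23 and Col1a2, Dcn and Lum were not among the listed genes. The leukocyte list had 2 of 6 genes, with 8401, 17143 and 27885 reads in sum, mostly from the lysosomal protein gene Cd68, at 8215, 17067 and 27799. Its other listed gene, Lyz2, went the other way, with 186, 76 and 86 reads, and the defining gene Ptprc was not among the listed genes. Neither erythroid marker was listed. Pdgfra and Cd68 were lowest in control and highest with Et2HOBA, and Kdr, Tek, Vwf and Tie1 the reverse. The part of these differences in the results was not tested. In such bulk RNA, a change in the share of cells of a type cannot be told apart from a change in RNA per cell.

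The Et2HOBA library was compared with control first. Cytosolic synthetase transcripts were higher as a set: 13 of 20 lay past the limit, all higher, and the median log2 ratio was 1.54. Over 13262 protein-coding genes 7.33% were higher past the limit, 9.3% were lower (16.6% in either direction), and the median ratio was 0.00. The set's share of all reads went from 0.254% in control to 0.614%. Mitochondrial synthetases showed no such shift, with 0 of 16 higher past the limit, 1 lower and a median of 0.06.

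**Figure D1:**
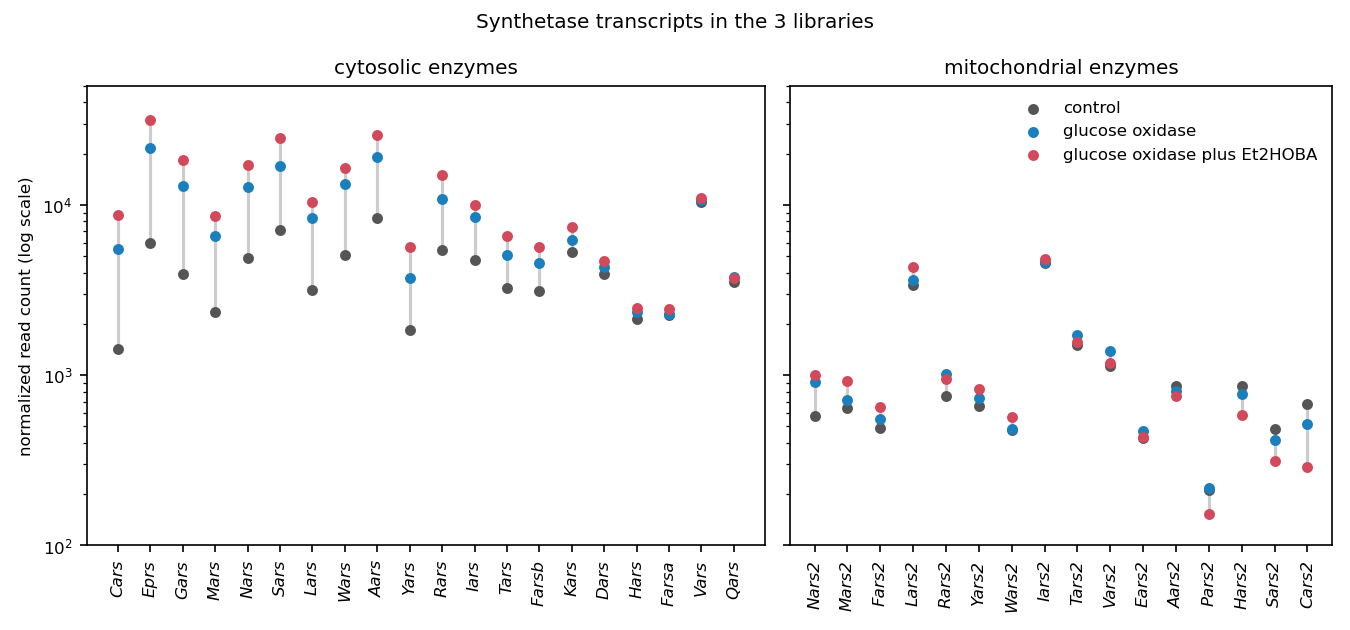
Normalized read count (log scale) of each synthetase in the 3 libraries, with cytosolic enzymes on the left and mitochondrial ones on the right, each ordered by the ratio of the Et2HOBA library to control. Each point is 1 library, and the grey line joins the lowest and highest. Points spread apart for the leftmost cytosolic genes, such as Cars with 1462 to 9051 reads, and nearly coincide for Vars and Qars.

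The cytosolic enzyme with the highest ratio was Cars, which attaches cysteine (ENSMUSG00000010755.17, GRCm38 chr7:143557230-143600090). Control held 1462 Cars reads, the glucose oxidase library 5352 and the Et2HOBA library 9051, so the 3 libraries stood well apart. Its normalized count was 6.15-fold that of control with Et2HOBA (95% interval 5.82 to 6.51) and 3.91-fold after glucose oxidase alone (3.69 to 4.15). Cars was the least abundant cytosolic synthetase in control, at 215 normalized counts per kilobase of annotated exon, and it reached 1324 with Et2HOBA.

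Eprs encodes a fused enzyme that attaches both glutamate and proline (ENSMUSG00000026615.14, chr1:185363044-185428360). Eprs had 6185, 20873 and 32838 reads, the most reads of any synthetase in both treated libraries. The fold over control was 5.28 with Et2HOBA (5.13 to 5.42) and 3.61 after glucose oxidase alone (3.51 to 3.71). The glycine enzyme Gars (ENSMUSG00000029777.10, chr6:55038007-55079500) had 4077, 12509 and 19141 reads, and its fold was 4.67 (4.51 to 4.83) with Et2HOBA. Per kilobase of exon, Gars was at 5909 normalized counts in the Et2HOBA library, above every other synthetase there. Annotated exon length adds up all isoforms, so these levels per length are lower for a gene such as Eprs with 18102 bases of annotated exon.

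Below these 3 came a group of 8 cytosolic genes with log2 ratios between 1.46 and 1.88 in the Et2HOBA library. The methionine enzyme Mars had 2418, 6312 and 9009 reads, and the asparagine enzyme Nars had 5050, 12349 and 17908. The serine enzyme Sars had 7403, 16420 and 25578, and the leucine enzyme Lars had 3253, 8052 and 10747. In each of these genes the Et2HOBA library was highest and control lowest. Wars, for tryptophan, had 5228, 12748 and 17017 reads. The alanine enzyme Aars had 8645, 18577 and 26878. Yars, for tyrosine, had 1895, 3583 and 5867 reads, and Rars, for arginine, 5619, 10422 and 15575. The same order of libraries held in these 4.

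The isoleucine enzyme Iars had 4907, 8247 and 10440 reads, and the threonine enzyme Tars 3339, 4885 and 6830. Their ratios with Et2HOBA, 1.08 and 1.02, lay just past the limit, and scaling by total reads put both under it. Just short of the limit was Farsb, one of the pair of subunits of the phenylalanine enzyme, at 0.85. Farsb had 3238, 4391 and 5894 reads, a fold of 1.81 with Et2HOBA (1.73 to 1.89). The other subunit, Farsa (ENSMUSG00000003808.18, chr8:84856989-84869257), had 2342, 2196 and 2540 reads, a fold of 1.08 (1.02 to 1.14). The counting intervals of the 2 subunits do not overlap.

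The remaining cytosolic enzymes differed little between libraries. Kars, for lysine, had 5456, 6015 and 7674 reads, a log2 ratio of 0.48 with Et2HOBA. Dars, for aspartate, was at 0.25 and Hars, for histidine, at 0.21. Vars, for valine (ENSMUSG00000007029.16, chr17:35000987-35016322), had 10675, 10367 and 11446 reads and a ratio of 0.09, and it was the most abundant synthetase per length in control, at 1845 normalized counts per kilobase. Qars, for glutamine (ENSMUSG00000032604.16, chr9:108507706-108515941), had 3659, 3632 and 3854 reads and a ratio of 0.07. All 20 cytosolic genes lay above 0, but Farsa, Qars and Vars lay below 0 when libraries were scaled by total reads, a choice that moved the median of all protein-coding genes to -0.14.

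**Figure D2:**
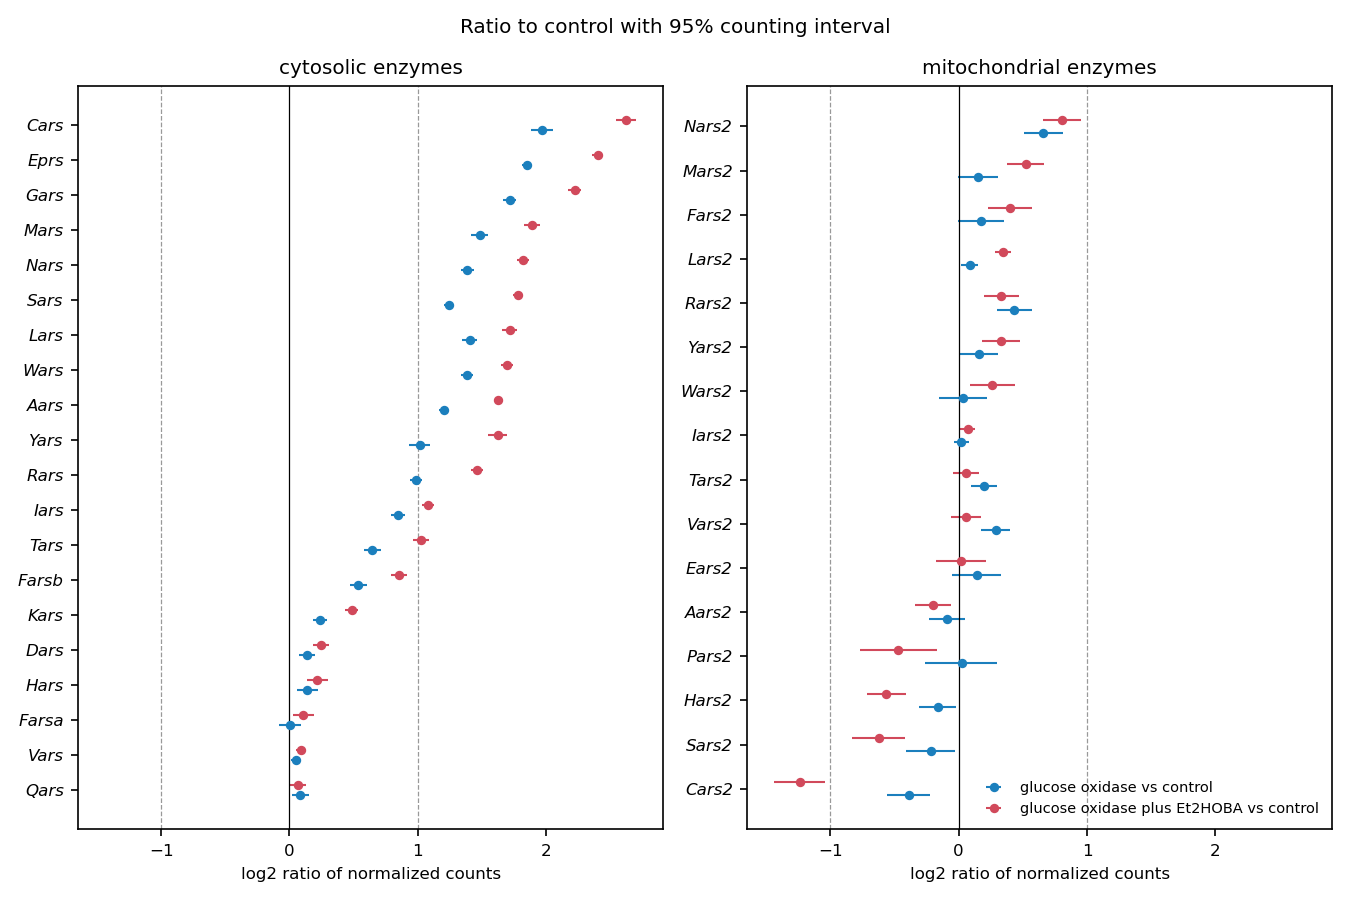
Log2 ratio of normalized counts to control for each synthetase (no pseudocount), after glucose oxidase alone and with Et2HOBA, with bars for the 95% exact counting interval and dashed lines at a log2 ratio of 1 in each direction. Cars, at 6.15-fold with Et2HOBA, tops the cytosolic panel, and Cars2, at 0.424 of control, is the only mitochondrial gene beyond a dashed line.

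Since many cytosolic synthetases differed together, their promoters were searched for the core of the C/EBP-ATF response element, a site that ATF4 can bind with a C/EBP partner. The core was spelled TGATGNAA and searched on both strands, in windows from 250 bases before to 50 after the RefSeq start site (GRCm38.p6). The table held a window for 13 cytosolic and 14 mitochondrial members. Mars was matched through its RefSeq synonym. Cars, Hars, Lars, Nars, Rars, Vars, Wars, Hars2 and Pars2 had no entry. The core was found in 5 of 13 cytosolic members and in 0 of 14 mitochondrial ones, and 3.97% of all 32851 windows hold it.

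The 5 windows with the core are shown first, because those genes lay past the limit with Et2HOBA in each case. Aars has the core at bases -112 to -105 and again at 10 to 17 from the start, Gars at -30 to -23, Iars at 8 to 15, Tars at -15 to -8 and Yars at 4 to 11. The Yars core is on the gene's strand, and the others are on the opposite strand, so that they read TTGCATCA or TTTCATCA in the windows. Eprs and Qars follow as windows without the core, from a gene with a high ratio and one with a low ratio. Each window is written 5′ to 3′ on the gene's strand, with the core in capitals.
Aars: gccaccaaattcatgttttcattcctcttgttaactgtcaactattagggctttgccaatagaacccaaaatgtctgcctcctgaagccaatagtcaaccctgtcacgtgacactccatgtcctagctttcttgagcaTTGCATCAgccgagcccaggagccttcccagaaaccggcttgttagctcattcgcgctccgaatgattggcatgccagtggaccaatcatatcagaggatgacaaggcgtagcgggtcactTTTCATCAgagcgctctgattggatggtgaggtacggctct
Gars: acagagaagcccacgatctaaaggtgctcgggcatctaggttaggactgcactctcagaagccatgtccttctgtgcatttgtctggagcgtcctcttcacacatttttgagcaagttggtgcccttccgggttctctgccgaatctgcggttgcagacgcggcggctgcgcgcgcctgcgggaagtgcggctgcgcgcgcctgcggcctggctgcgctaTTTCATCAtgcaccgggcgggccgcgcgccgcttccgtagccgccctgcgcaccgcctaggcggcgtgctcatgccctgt
Iars: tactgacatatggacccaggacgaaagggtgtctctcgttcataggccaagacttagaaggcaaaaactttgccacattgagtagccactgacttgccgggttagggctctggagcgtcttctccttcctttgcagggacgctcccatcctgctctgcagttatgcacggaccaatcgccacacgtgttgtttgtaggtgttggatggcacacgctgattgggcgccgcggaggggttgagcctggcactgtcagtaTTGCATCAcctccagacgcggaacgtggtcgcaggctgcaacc
Tars: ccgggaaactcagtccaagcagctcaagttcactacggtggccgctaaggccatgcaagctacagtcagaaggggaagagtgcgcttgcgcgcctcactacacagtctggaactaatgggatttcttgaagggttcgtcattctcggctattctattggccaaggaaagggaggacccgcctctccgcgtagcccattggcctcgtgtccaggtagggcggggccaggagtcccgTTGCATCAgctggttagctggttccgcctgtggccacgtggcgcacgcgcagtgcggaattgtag
Yars: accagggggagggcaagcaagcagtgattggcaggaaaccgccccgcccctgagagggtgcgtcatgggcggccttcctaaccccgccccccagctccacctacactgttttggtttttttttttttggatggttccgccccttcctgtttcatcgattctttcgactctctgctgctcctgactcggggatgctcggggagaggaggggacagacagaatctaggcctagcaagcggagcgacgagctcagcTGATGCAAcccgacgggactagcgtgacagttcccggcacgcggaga
Eprs: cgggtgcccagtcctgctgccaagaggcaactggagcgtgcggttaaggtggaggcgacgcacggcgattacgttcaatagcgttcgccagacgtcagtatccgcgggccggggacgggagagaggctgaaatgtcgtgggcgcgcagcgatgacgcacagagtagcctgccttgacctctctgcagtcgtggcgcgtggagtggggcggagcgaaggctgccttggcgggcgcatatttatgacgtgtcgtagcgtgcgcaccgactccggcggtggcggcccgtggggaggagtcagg
Qars: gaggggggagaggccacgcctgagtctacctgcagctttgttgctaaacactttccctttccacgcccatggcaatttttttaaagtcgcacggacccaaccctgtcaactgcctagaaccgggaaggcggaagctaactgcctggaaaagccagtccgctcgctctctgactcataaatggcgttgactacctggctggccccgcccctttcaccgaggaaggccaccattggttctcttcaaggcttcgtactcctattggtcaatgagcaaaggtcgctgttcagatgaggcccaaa
The windows are chr8:111033592-111033891 for Aars, chr6:55037751-55038050 for Gars, chr13:49681880-49682179 for Iars, chr15:11399609-11399908 for Tars, chr4:129189653-129189952 for Yars, chr1:185362794-185363093 for Eprs and chr9:108507755-108508054 for Qars. Tars lies on the minus strand and the others on the plus strand. Ratios with Et2HOBA were between 1.02 and 2.22 for the 5 genes with the core, with a median of 1.62. The 8 cytosolic genes whose window lacks it had a median of 0.67 and ranged from 0.07 for Qars to 2.40 for Eprs, and 3 of them, Eprs, Mars and Sars, lay past the limit. From summed normalized counts the log2 ratios were 1.59 with the core and 1.40 without. Of the cytosolic genes with no entry, Cars, Lars, Nars, Rars and Wars also lay past the limit, and Hars and Vars did not. Whether the core goes with the ratio was not tested. A match of letters is a description and not a shown binding site, and a window without a match leaves elements elsewhere in the gene unexamined.

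**Figure D3:**
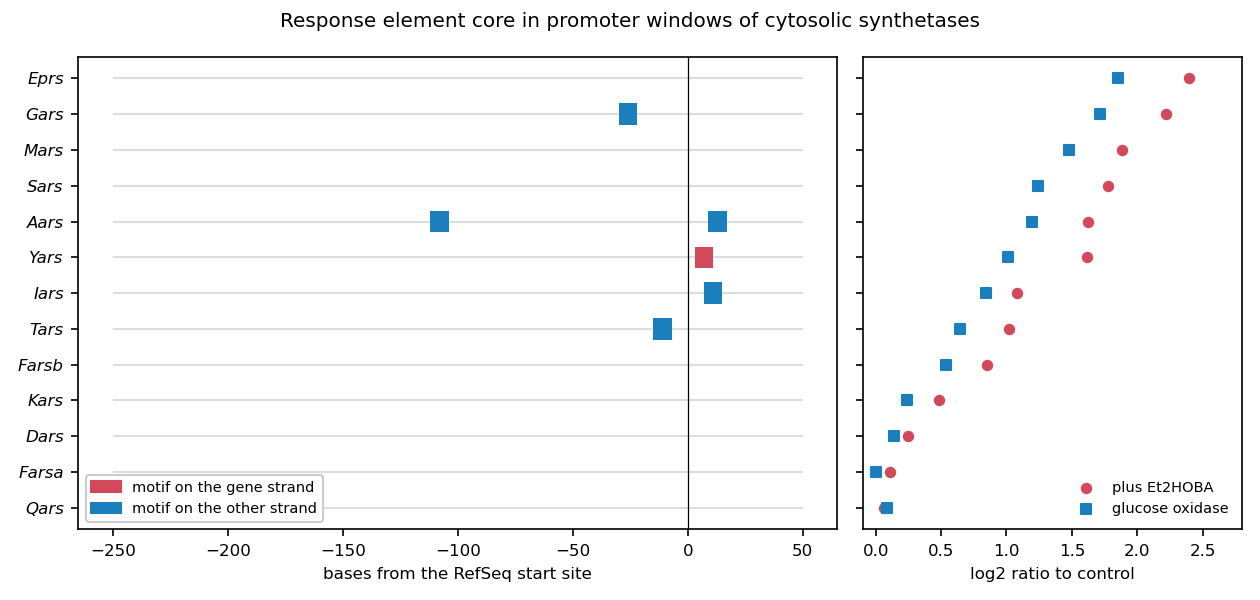
Position of the response element core in the promoter windows of 13 cytosolic synthetases, in bases from the RefSeq start site (left; colour gives the strand), beside the log2 ratio of each gene to control (right). Genes with a mark, such as Gars and Aars, have ratios of at least 1.02 with Et2HOBA, and Eprs, at 2.40, has no mark.

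Glucose oxidase alone was then compared with control. Here 10 of 20 cytosolic genes were higher past the limit and none was lower, with a median log2 ratio of 0.999. Among protein-coding genes 4.52% were higher past the limit, 4.77% were lower (9.3% in either direction), and the median was 0.04. The 10 genes were Cars, Eprs, Gars, Mars, Lars, Nars, Wars, Sars, Aars and Yars, from 1.96 for Cars to 1.01 for Yars. Yars lay close to the limit and is at 0.95 in the authors' deposited table. Rars lay just short of it, at 0.99. Farsa and Vars, at 0.00 and 0.05, were below 0 under scaling by total reads. Both comparisons use the same control library, so their likeness is not separate evidence.

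Mitochondrial synthetases stayed within the limit after glucose oxidase, with a median ratio of 0.11 and a range from -0.38 for Cars2 to 0.65 for Nars2. The counting interval held equal levels for 7 of the 16, for Farsa alone among the 20 cytosolic genes, at 1.002-fold (0.945 to 1.06), and for 33.7% of protein-coding genes. Mitochondrial synthetases have fewer reads, 18300 in sum in control against 91133, and therefore wider intervals.

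The last comparison set the Et2HOBA library against the glucose oxidase library. No synthetase passed the limit, while 0.973% of protein-coding genes were higher past it and 2.34% lower (3.31% in either direction). At a limit of 0.5, 5 of 20 cytosolic genes were higher and none lower, beside 5.69% higher, 11.6% lower and 17.3% in either direction among protein-coding genes. The 5 were Cars at 0.65, Yars at 0.60, Eprs at 0.55, Sars at 0.53 and Gars at 0.51. The cytosolic median was 0.35, against -0.02 for all protein-coding genes, and 17 of 20 genes had an interval above equal levels, beside 28.8% of protein-coding genes. For Hars, Qars and Vars the interval held equal levels, as for 40.6% of protein-coding genes. Intervals narrow as reads rise, so these shares depend on depth. Cytosolic members had at least 1462 reads in control, while a listed gene could have as few as 5 in its highest library. Over the 3 libraries 19 of 20 cytosolic genes had their lowest normalized count in control and their highest with Et2HOBA, Qars being the exception, and 32.4% of protein-coding genes had that order. Scaling by total reads lowered the cytosolic median to 0.25 and that of protein-coding genes to -0.11, left Cars and Yars as the cytosolic genes above 0.5, and put Hars and Vars below 0.

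**Figure D4:**
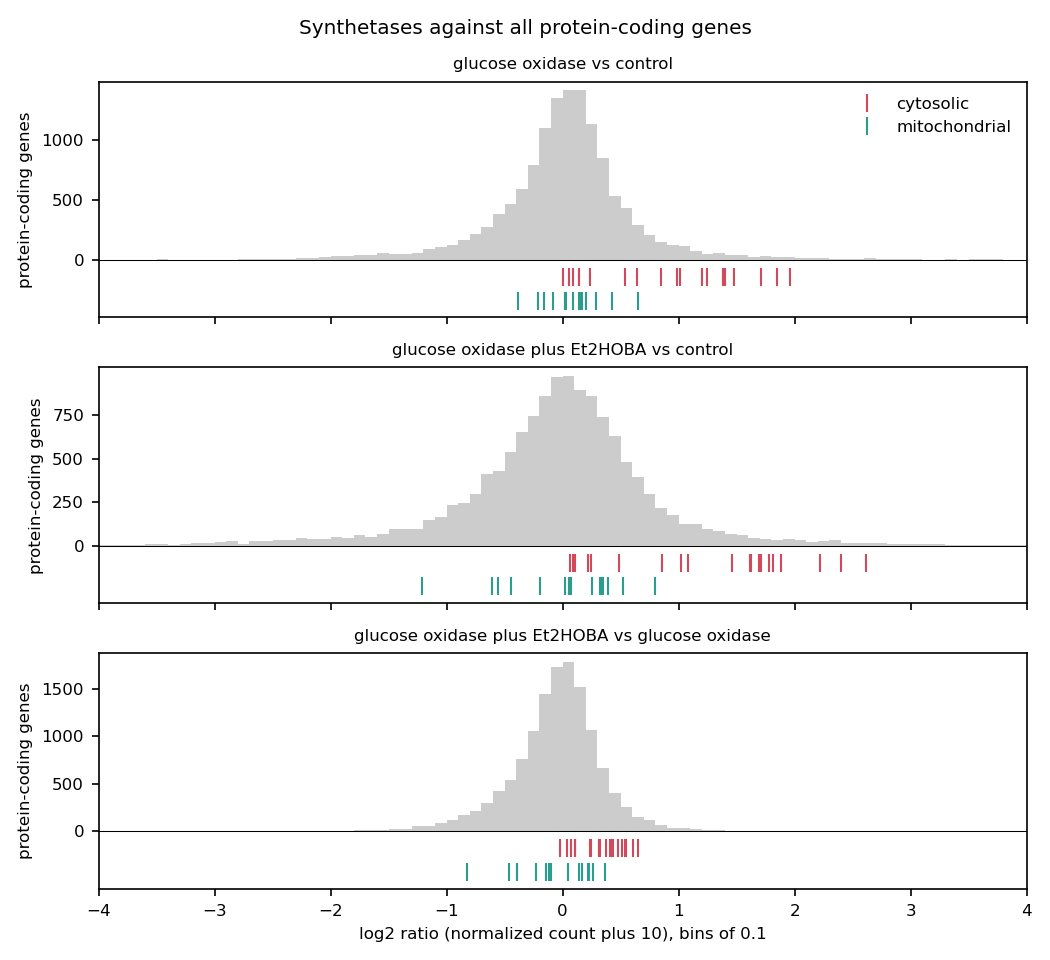
Number of protein-coding genes by log2 ratio, in bins of 0.1, for each comparison, with ticks for the cytosolic and mitochondrial synthetases below each histogram; the axis stops at 4 in each direction, and a few genes lie outside it. Cytosolic ticks spread to the right of the histogram's centre in both comparisons with control, with medians of 0.999 and 1.54, and mitochondrial ticks lie on both sides of it, out to -1.21 for Cars2 and 0.79 for Nars2 with Et2HOBA.

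Mitochondrial synthetases lay on both sides of control with Et2HOBA. Of the 16, 8 had a counting interval above equal levels with control, 5 below, and 3 (Ears2, Tars2 and Vars2) holding them. Among protein-coding genes 38.6% were above in this way, 36.4% below and 25.0% holding equal levels, so these counts do not set the 16 apart. Iars2, one of the 8, lay below 0 under scaling by total reads. The lowest was Cars2, the mitochondrial cysteine enzyme (ENSMUSG00000056228.10, chr8:11513977-11550783), which is also known to make cysteine persulfides. Cars2 had 703, 502 and 300 reads, the last being 0.424 of the control level (0.369 to 0.486). Cars2 had a log2 ratio of -0.83 between the treated libraries, the single mitochondrial gene past 0.5 there, where 11.6% of protein-coding genes were lower by that much.

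Other mitochondrial enzymes lower with Et2HOBA were those for serine, histidine and proline. Sars2 had 497, 400 and 325 reads, Hars2 had 895, 748 and 610, and Pars2 had 220, 209 and 160. Sars2 and Hars2 were lowest with Et2HOBA and highest in control, while Pars2 stood lower in the Et2HOBA library only. Their folds with Et2HOBA over control were 0.650 (0.563 to 0.749), 0.677 (0.610 to 0.752) and 0.723 (0.586 to 0.890). Aars2, for alanine, was at 0.873 of control (0.792 to 0.962).

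At the other end was Nars2, the mitochondrial asparagine enzyme (ENSMUSG00000018995.12, chr7:96951505-97064758). Nars2 had 594, 878 and 1043 reads, and its fold over control was 1.75 (1.58 to 1.93) with Et2HOBA and 1.58 (1.42 to 1.76) after glucose oxidase. Next came Mars2, for methionine, with 663, 690 and 959 reads and a fold of 1.44 (1.30 to 1.59), which was near control after glucose oxidase alone. Fars2, Lars2, Rars2, Yars2 and Wars2 had log2 ratios between 0.26 and 0.39 with Et2HOBA. Iars2, the isoleucine enzyme and the mitochondrial synthetase with the most reads, had 4708, 4470 and 4978. Mitochondrial synthetases were also less abundant per length, with a median of 163 normalized counts per kilobase in control against 902 for cytosolic ones.

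For 13 amino acids there is 1 cytosolic and 1 mitochondrial enzyme with matching symbols. In all 13 the cytosolic gene had the higher ratio with Et2HOBA against control, and the median gap was 1.29 on the log2 scale. The widest gap was for cysteine, at 3.82, where Cars was higher and Cars2 lower than control. Serine followed, at 2.38, from 1.78 for Sars and -0.61 for Sars2. The narrowest was for valine, at 0.04, where neither Vars nor Vars2 differed much. For asparagine both enzymes were higher, by 1.81 for Nars and 0.79 for Nars2. Phenylalanine, with its 2 cytosolic subunits, is not among the 13. There Farsa was below Fars2, with gaps of -0.28 with Et2HOBA, -0.17 after glucose oxidase and -0.12 between the treated libraries, while Farsb was above Fars2, by 0.46 with Et2HOBA. After glucose oxidase alone the cytosolic gene had the higher ratio in 12 of the 13, valine being the exception at -0.23. Hars and Hars2 lie head to head on chromosome 18 and share exon bases on opposite strands, and their ratios with Et2HOBA were 0.21 and -0.55.

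**Figure D5:**
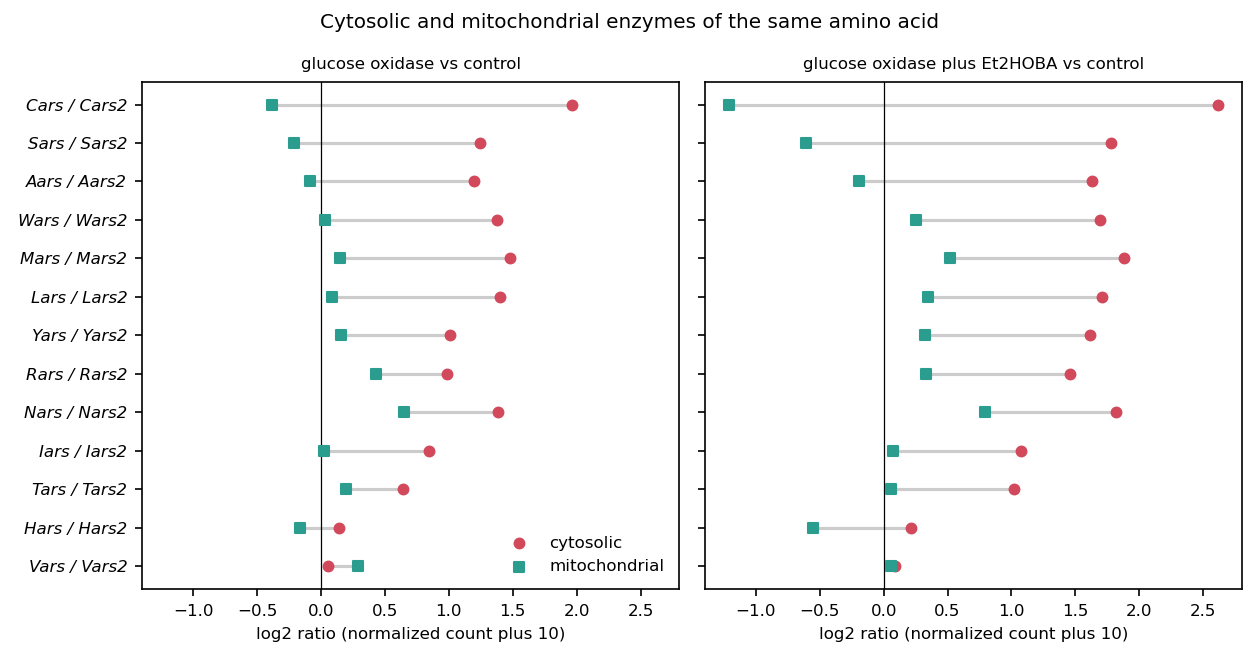
Log2 ratios (normalized count plus 10) of the cytosolic and mitochondrial enzymes of 13 amino acids, joined by a line, after glucose oxidase (left) and with Et2HOBA (right), both against control. The cysteine pair is the widest, with a gap of 3.82 on the right, and the valine pair the narrowest, at 0.04.

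Cytosolic synthetases were also grouped by catalytic fold and by membership in the multi-synthetase complex, an assembly that holds some of them together. Class I enzymes had 8 of 10 genes past the limit with Et2HOBA and a median ratio of 1.65, and class II enzymes 5 of 10 and 0.94. Eprs was counted with class I for its glutamate part, although its proline part is class II. Of the complex members 5 of 8 were past the limit, with a median of 1.27, and of the other cytosolic enzymes 8 of 12, with 1.62. Both groups spanned nearly the whole range, from Qars to Eprs in the complex and from Vars to Cars outside it. Ratios of summed normalized counts lay closer together, at 1.46 for class I and 1.38 for class II on the log2 scale. They were 1.41 for the complex and 1.43 for the other cytosolic enzymes. Among protein-coding genes 7.33% were higher past the limit. These counts are descriptions, and the differences between groups were not tested.

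Genes of the complex's scaffold proteins differed from one another. Eef1e1 had 371, 596 and 982 reads, a log2 ratio of 1.37 with Et2HOBA against control. Aimp1 had 1950, 2509 and 2872 reads and a ratio of 0.55. Aimp2 had 728, 734 and 738 reads, and its interval held equal levels in each comparison.

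Genes that act beside the synthetases were mostly within the limit, as most protein-coding genes were. With Et2HOBA, 7.33% of protein-coding genes were higher past it and 9.3% lower (16.6% in either direction). Of 24 genes for making, processing and exporting transfer RNA, 1 was past the limit with Et2HOBA, and the median was 0.00. That gene was Xpot, the nuclear export receptor for transfer RNA, with 4571, 9388 and 11347 reads, and its folds over control were 2.20 (2.12 to 2.28) after glucose oxidase and 2.47 (2.38 to 2.55) with Et2HOBA. None of 16 partners and elongation factors of mitochondrial charging passed, with a median of 0.05, and none of 4 genes for selenocysteine transfer RNA passed, with a median of 0.19. Such counts past the limit do not set these lists apart from protein-coding genes. The list of 6 cytosolic elongation genes holds the factors Eef1a1 and Eef2, the exchange factor subunits Eef1b2, Eef1d and Eef1g, and Eef2k, a kinase that inhibits the Eef2 product. It had a median of 0.46 with Et2HOBA and a highest ratio of 0.51.

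Of 11 genes for sensing uncharged transfer RNA and for the ATF4 axis, 6 were higher past the limit with Et2HOBA and 5 after glucose oxidase. Among protein-coding genes these shares were 7.33% and 4.52%. Ratios in the list ran from -0.07 to 5.30 with Et2HOBA, with a median of 1.16. Atf4 had 3288, 11946 and 19243 reads, a fold over control of 5.82 (5.60 to 6.04) with Et2HOBA, and Asns, its asparagine synthetase target, had 790, 7854 and 12973. Trib3, a pseudokinase gene of the stress response, had 291, 7016 and 11263 reads, and Chac1, whose product degrades glutathione, had 65, 1396 and 2976. These 4 stood highest with Et2HOBA and lowest in control, the order seen in 19 cytosolic synthetases and in 32.4% of protein-coding genes. Ddit3 and Cebpb, also past the limit with Et2HOBA, had ratios of 3.16 and 1.16. Whether any of these genes bears on the synthetases was not tested. Eif2ak4, which encodes GCN2, had 1365, 1328 and 1926 reads, a ratio of 0.48 with Et2HOBA.

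Sequence shared with other genes was found in few members. In the longest transcript of Aars, 22.4% of 50-base stretches also occur in a transcript annotated to Exosc6, and 14.3% of Aars exon bases overlap it on the same strand. Iars shares 8.61% of its stretches with the pseudogene Gm4849, which had 13, 1 and 28 reads, far below those of Iars. Cars2 shares 1.91%, and the other members at most 1%. Processed pseudogenes as a class took 0.72% of all control reads, 0.391% of those in the glucose oxidase library and 0.755% in the Et2HOBA library, and the part of that difference in these values was not tested. The largest opposite-strand overlaps were those of Iars2, at 24.2% of its exon bases, with Rab3gap2 (3112, 3279 and 4172 reads) and 2010103J01Rik, and of Fars2, at 10.7%, with Lyrm4 and Nrn1. Mars overlaps Ddit3 on the opposite strand over 1.99% of its exon bases. Ddit3 had 472, 2411 and 4339 reads, and the strand setting of the counting is not given in the sources used here, so the part of such reads in the counts of Iars2, Fars2 and Mars was not tested. Leaving out the members with over 1% shared stretches or at least 10% overlapping exon bases left the cytosolic medians at 1.54 with Et2HOBA and 0.999 after glucose oxidase. It removed 3 mitochondrial members, among them Cars2, so that 0 of 13 remained past the limit, and the mitochondrial medians were 0.06 with Et2HOBA and 0.14 after glucose oxidase.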

How the data were processed

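Polyadenylated RNA of mouse aortic endothelial cells was sequenced in 3 groups of 1 library. STAR, featureCounts and mm10 are named in the submitters' processing notes, without versions. Read counts of the control and Et2HOBA libraries were deposited for 18287 genes; every gene matched here had at least 5 reads in 1 library or more. The authors also deposited log2 differences between log-normalized values, and for glucose oxidase against control only these, by gene symbol and without a header. The deposited table of the treated libraries (7 genes) held no synthetase and was not used.

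Matching by symbol kept 18258 genes; 29 rows with repeated or altered symbols were left out, none a member. The log-normalized values match a variance-stabilizing curve (arcsinh of a scaled count's square root). Solving it for the unknown library, given the control counts, returned whole numbers (tolerance 0.01) in 100% of genes, with a largest distance of 0.000138; adding 1 read to each control count left 3.3% whole. The deposited log2 differences act as if about 202 (glucose oxidase) and 71.1 (Et2HOBA) counts had been added, so they differ in scale between tables.

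Size factors by median of ratios over the 3 libraries were 1.03, 0.965 and 1.04. A pseudocount of 10 was added for log2 ratios. Intervals used SciPy 1.17.1 at 95%, and trimmed-mean scaling used edgeR 4.0.16. No count model was fitted, because 1 library per group gives no spread. Intervals cover counting error only. They take each read as independent, which cannot be checked because PCR reads carry no molecular identifiers. All 36 gene IDs had the same version and position in GENCODE M21. Count recovery and the calls were tried on counts simulated with Poisson noise and the same curve, which cannot check the curve itself. Alternatives were total-read, trimmed-mean and protein-coding scaling, a pseudocount of 1, the deposited scale, a limit of 0.5, a mean count of at least 100, pairwise size factors and the removal of members with shared sequence, the last 2 added after seeing the data. Members, lists and the limit of 1 were chosen with earlier results of these data known. Every member could be named, and from other lists genes past the limit (at most 6 each); marker genes, Aimp1, Aimp2, Eif2ak4, the elongation genes and genes overlapping members were named outside this rule, after their values were seen. A further gene list is not reported here.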

Additional observations from a re-analysis of the deposited data

How the results depend on the processing

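No paired analysis was possible because each group has 1 library. Scaling by total reads moved the cytosolic median with Et2HOBA from 1.54 to 1.39 against control and from 0.35 to 0.25 against glucose oxidase, and the mitochondrial median against control from 0.06 to -0.0859. It left 12 of 14 members past the limit with Et2HOBA, without Iars and Tars, and 9 of 10 after glucose oxidase, without Yars. Protein-coding size factors and the deposited scale also took Yars under the limit. Between the treated libraries 0 members passed a limit of 1 and 6 passed 0.5. The other settings kept the count of members past the limit within 1.5 times. They kept each median inside a band between the medians of its members' lower and upper interval ends. That band is not an interval for the median itself. Removing members with shared sequence moved no median outside that band. Of single member values, total-read scaling put 61 of 108 outside their counting intervals, and no called ratio changed sign. The deposited scale gives no member value between the treated libraries. The mean count filter removed no member. Every member had 160 reads or more in each library. Counting intervals were narrow for cytosolic genes and wider for mitochondrial genes with few reads. For Pars2 the interval with Et2HOBA was 0.586 to 0.890 of control. Variation between cultures is unknown.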
